A study of Homo sapiens with 12 samples.

Results

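The genes described here are 34 genes of cholesterol and fatty acid synthesis that are controlled by, or control, the sterol regulatory element-binding proteins (SREBPs), in WI-38 fibroblasts cultured with or without TGF-β. They were chosen by gene name as a pathway, with earlier results of these data known, and all 34 had a row among the 25702 genes of the count table. RNA sequencing counts were available for 4 conditions with 3 flasks each: D1 and D1+ TGF-β, collected on day 1 at passages 2 to 3, and D20 and D20+ TGF-β, collected on day 20 at passages 5 to 6. TGF-β was given at 2 ng/ml, and the D1 and D20 flasks were the untreated cultures of the same day. WI-38 is a fibroblast line from normal fetal lung, all flasks therefore came from 1 line, and the D20 flasks of each treatment had been reseeded from a single treated or untreated flask. The p values thus measure the spread between sister flasks, and day of culture, passage, reseeding and confluence cannot be told apart. At day 20, TGF-β and the single flask that each treatment was reseeded from cannot be told apart either.

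SREBPs are transcription factors made as membrane proteins of the endoplasmic reticulum. When membrane sterol is low, the escort protein SCAP carries them to the Golgi, where proteases release the active part; when sterol is high, INSIG proteins hold SCAP and SREBP back. The SREBF2 product acts mainly on genes of the mevalonate and sterol pathway, and a form of the SREBF1 product acts mainly on genes of fatty acid synthesis and desaturation. INSIG1 is itself a target, so its RNA is widely read as a gauge of the pathway. Cells loaded with sterol also make oxysterols, which bind liver X receptors (LXRs); LXR targets include ABCA1, which exports cholesterol, MYLIP, a ubiquitin ligase for lipoprotein receptors, and SREBF1.

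Library totals ranged from 8674488 to 18286197 counts. The 8 fibroblast markers checked (COL1A1, COL1A2, COL3A1, PDGFRB, THY1, VIM, DCN and LUM) summed to between 13652 and 23170 cpm (read counts scaled to library size) in a flask, while the summed adipocyte, hepatocyte and endothelial markers reached at most 0.304, 0.236 and 1.71 cpm. Of the epithelial markers KRT5 was at 0 and KRT19 reached 26.7 cpm, in D1, and of the blood markers CD68 reached 62.6 cpm and PTPRC at most 0.194. The 3 myofibroblast markers (ACTA2, TAGLN and CNN1) summed to 901 to 1468 cpm in D1, 2623 to 2860 in D1+ TGF-β, 1396 to 1484 in D20 and 1417 to 1652 in D20+ TGF-β, and their part in the results below was not tested. At day 20 they did not move together: CNN1 had a mean of 53.3 ± 0.219 cpm in D20 and 39.4 ± 4.89 in D20+ TGF-β (SD, n = 3). ACTA2 was at 287 ± 10.1 and 315 ± 37.4 cpm, and TAGLN at 1101 ± 33.8 and 1145 ± 90.8 cpm. Of the 34 genes, 33 reached the minimum of 10 cpm in at least 6 of the 12 libraries and were tested among 9490 genes with edgeR's quasi-likelihood test. MYLIP did not, with 10 cpm or more in 4 libraries. A gene is called upregulated or downregulated where its Benjamini-Hochberg adjusted p, over all genes tested, was under 0.01.

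One flask stood apart in these genes. D1 replicate 2 lay below both other D1 flasks in 30 of the 34 genes, at a median of 59.9% of the mean of the other two (range 39.4% to 85.1%), and above both in NPC1, ABCA1 and MYLIP, with SCAP in between. Over all genes tested the shares were 38.6% below and 35.2% above. The median coefficient of variation of the 34 genes was 28.7% in D1, against 5.41% in D1+ TGF-β, 5.37% in D20 and 5.03% in D20+ TGF-β, and 7.67% in D1 once this flask was left out. The median of 20 proliferation genes was 84.5 cpm in D1 replicate 2 and 54.8 and 64.9 cpm in the other D1 flasks. The part of this difference in the results was not tested, and values without the flask are given after each comparison that uses D1. The flask also enters the other comparisons, through the shared estimate of the spread and the scaling factors.

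**Figure D1:**
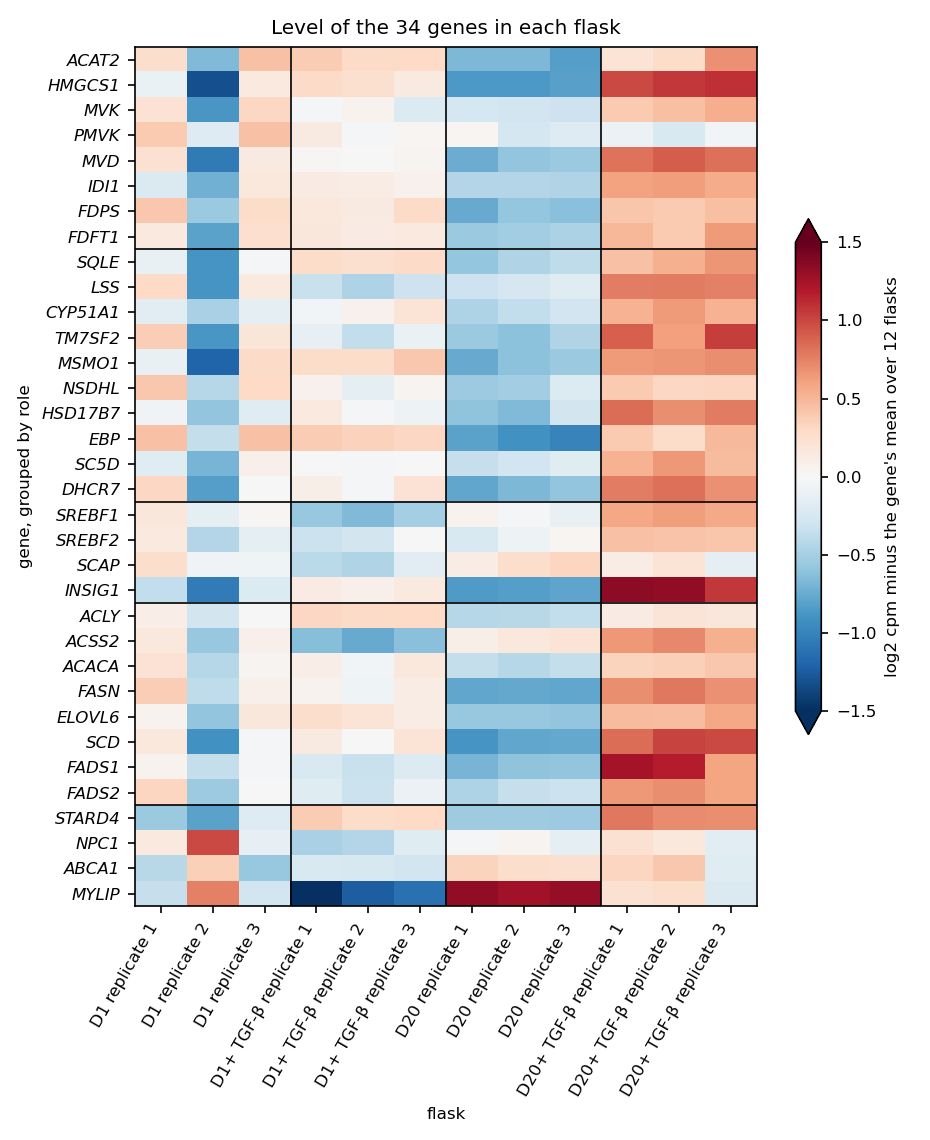
Level of each of the 34 genes (rows, grouped by role and separated by lines) in each of the 12 flasks (columns), as log2 cpm minus the gene's mean over the 12 flasks; the colour scale ends at 1.5 in either direction. The D20+ TGF-β flasks are high and the D20 flasks low in most rows, and D1 replicate 2 is low in 30 of the 34 rows among the D1 flasks.

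Compared per length of the canonical transcript, so that genes can be set beside each other, the untreated D20 cells held most RNA of SCD, the desaturase that makes oleate, at 113 ± 4.84 cpm per kb (SD, n = 3). ACLY, which makes cytosolic acetyl-CoA from citrate, was at 99.7 ± 2.19 cpm per kb and the desaturase FADS2 at 95.7 ± 4.94. The farnesyl diphosphate synthase FDPS followed at 84.8 ± 5.00 cpm per kb. At the other end lay MYLIP at 5.22 ± 0.132 cpm per kb and HSD17B7, a ketoreductase of sterol demethylation, at 5.45 ± 0.836. Of the 33 pairs of neighbours in this order, 22 had overlapping flasks at D20 and 11 were separate. SREBF2 at 30.3 ± 2.72 cpm per kb stood above SREBF1 at 13.0 ± 0.723. The mean was highest in D20+ TGF-β for 28 of the 34 genes and lowest in D20 for 26.

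**Figure D2:**
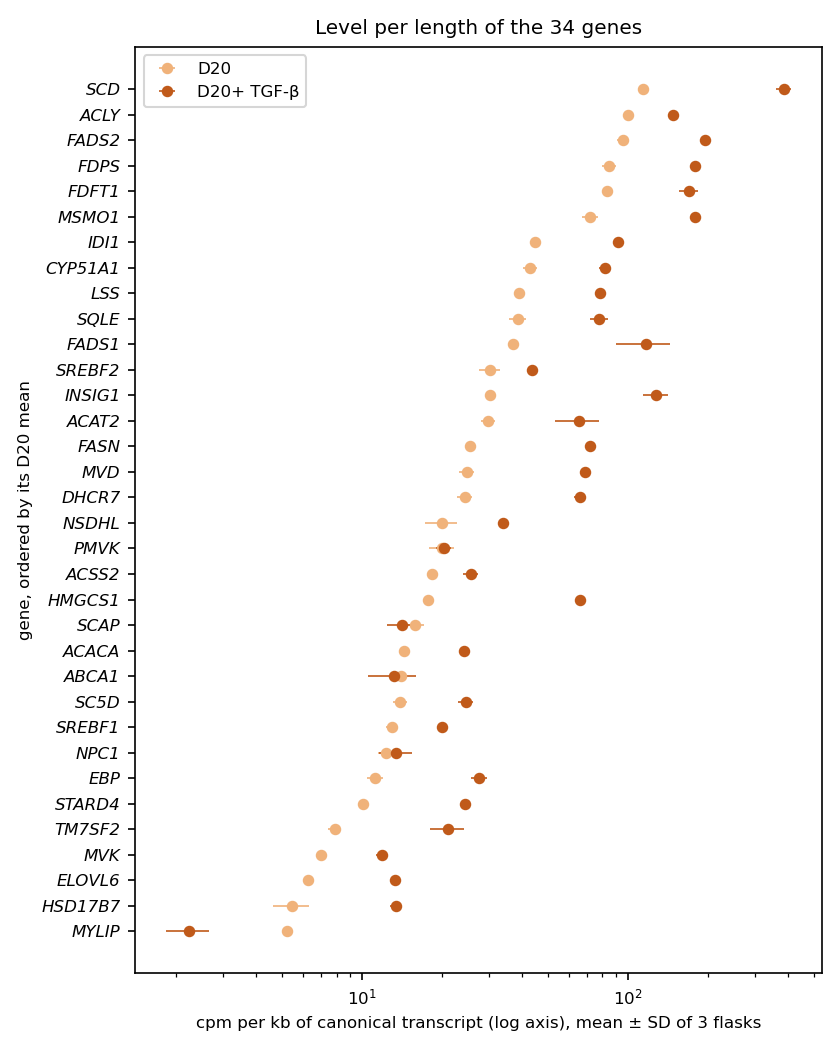
Level of the 34 genes in cpm per kb of canonical transcript (log axis) in D20 and D20+ TGF-β, ordered by the D20 mean; points are means and bars SDs of 3 flasks. SCD leads in both conditions, the D20+ TGF-β points lie to the right for most genes, and MYLIP lies to the left.

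D20+ TGF-β vs D20 compares long treatment with untreated cultures of the same age, each grown from a single flask. In it 27 of the 33 genes tested were upregulated and 0 downregulated, against 12.8% of all genes tested upregulated and 14.7% downregulated. Without D1 replicate 2 in the shared fit the counts were 29 and 0, the 27 among them, beside 16.3% and 18.2% of all genes tested. Called genes lay in all steps from squalene to cholesterol, in most mevalonate steps and in fatty acid synthesis and desaturation, and 0 of the 33 tested were lower at an unadjusted p under 0.05 in edgeR or downregulated by DESeq2 or limma-voom; MYLIP, outside the 33, was lower. The median log2 fold change of the 33 genes was 1.03, beside 0.01 over all genes, with a range of -0.17 to 2.07. In 29 of the 33 genes all 3 D20+ TGF-β flasks lay above all 3 D20 flasks, and in 58.3% of all genes tested the flasks of the conditions were separate in either direction. DHCR7, LSS and the other 8 enzymes between squalene and cholesterol were all upregulated, as were 6 of 8 mevalonate enzymes, 7 of 8 fatty acid genes, 3 of the 4 genes of the SREBP system and STARD4.

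**Figure D3:**
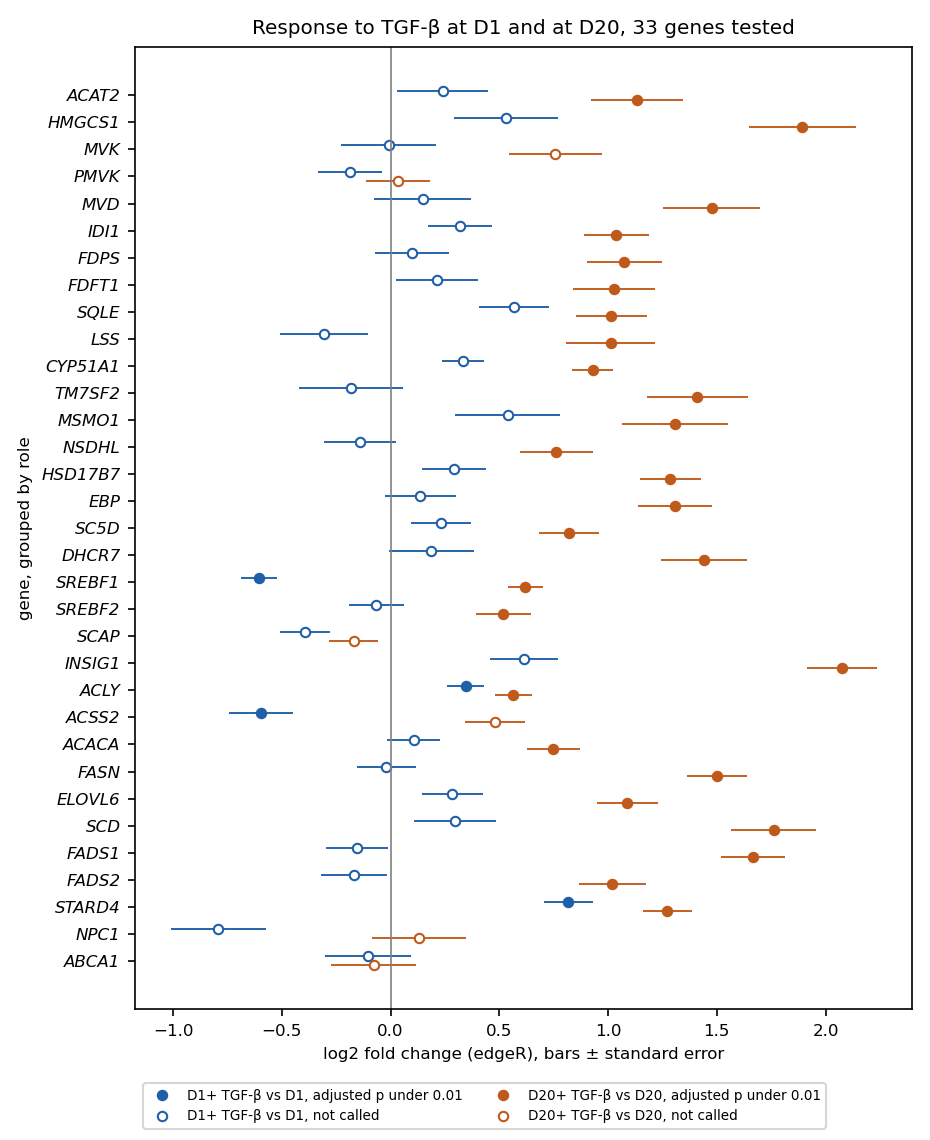
Log2 fold change with TGF-β at D1 (blue) and at D20 (orange) for the 33 genes tested; bars are standard errors, filled points have an adjusted p under 0.01. At D20, 27 points are filled and all of these lie right of 0; at D1, 4 points are filled, 2 on either side.

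INSIG1, which retains SCAP and SREBP in the endoplasmic reticulum (GRCh37 chr7:155089486-155101945), was at 86.1, 87.4 and 90.0 cpm in the D20 flasks and at 395, 391 and 325 cpm in the D20+ TGF-β flasks. All 3 treated flasks lay far above the untreated ones, with replicate 3 the lowest of them. This was the largest change of the 33 genes, 4.21-fold (log2 2.07 ± 0.16 SE, edgeR adjusted p = 4.70e-07).

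The promoters of the genes with the smallest adjusted p in this comparison are shown because these genes rose together. RefSeq promoter windows of 250 bases before to 50 after a gene's start (GRCh38.p14) were at hand for 30 of the 34 genes and not for FDFT1, SQLE, ACAT2 and FASN. Capitals mark the letters searched on both strands: TCACNCCAC, a form of the sterol element that SREBPs bind; TCACGTGA, a palindrome of the E-box kind; and CCAAT, the letters of NF-Y, a factor that often binds beside SREBPs. All are written 5′ to 3′ on the gene's strand: INSIG1 at chr7:155297628-155297927 (+), STARD4 at chr5:111512486-111512785 (-), FADS1 at chr11:61816954-61817253 (-), CYP51A1 at chr7:92134428-92134727 (-), HSD17B7 at chr1:162790452-162790751 (+) and SCD at chr10:100346983-100347282 (+).
INSIG1: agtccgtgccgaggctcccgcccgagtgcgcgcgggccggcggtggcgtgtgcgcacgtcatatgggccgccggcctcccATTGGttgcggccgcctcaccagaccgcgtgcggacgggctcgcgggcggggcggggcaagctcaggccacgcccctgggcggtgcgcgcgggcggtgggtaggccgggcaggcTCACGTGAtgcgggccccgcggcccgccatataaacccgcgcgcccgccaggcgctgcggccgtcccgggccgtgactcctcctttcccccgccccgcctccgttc
STARD4: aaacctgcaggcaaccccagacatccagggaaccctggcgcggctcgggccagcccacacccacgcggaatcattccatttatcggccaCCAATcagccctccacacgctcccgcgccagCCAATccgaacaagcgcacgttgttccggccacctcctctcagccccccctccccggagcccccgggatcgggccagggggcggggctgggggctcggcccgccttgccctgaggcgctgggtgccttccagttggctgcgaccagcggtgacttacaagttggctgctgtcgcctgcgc
FADS1: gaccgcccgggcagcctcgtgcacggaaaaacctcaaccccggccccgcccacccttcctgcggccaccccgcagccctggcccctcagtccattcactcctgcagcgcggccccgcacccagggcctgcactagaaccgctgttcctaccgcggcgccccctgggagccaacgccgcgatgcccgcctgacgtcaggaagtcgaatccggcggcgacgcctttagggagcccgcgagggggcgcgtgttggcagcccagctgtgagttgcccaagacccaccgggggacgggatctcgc
CYP51A1: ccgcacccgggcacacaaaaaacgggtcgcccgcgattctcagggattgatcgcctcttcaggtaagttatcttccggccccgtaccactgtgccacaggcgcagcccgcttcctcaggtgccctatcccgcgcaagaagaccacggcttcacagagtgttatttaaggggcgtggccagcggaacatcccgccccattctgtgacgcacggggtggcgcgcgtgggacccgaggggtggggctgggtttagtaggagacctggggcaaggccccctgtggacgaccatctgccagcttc
HSD17B7: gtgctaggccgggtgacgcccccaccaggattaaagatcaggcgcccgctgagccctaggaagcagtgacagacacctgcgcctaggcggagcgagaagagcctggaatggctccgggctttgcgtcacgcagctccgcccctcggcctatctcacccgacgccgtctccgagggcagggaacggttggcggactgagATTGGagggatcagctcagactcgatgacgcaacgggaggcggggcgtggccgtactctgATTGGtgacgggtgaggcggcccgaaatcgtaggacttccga
SCD: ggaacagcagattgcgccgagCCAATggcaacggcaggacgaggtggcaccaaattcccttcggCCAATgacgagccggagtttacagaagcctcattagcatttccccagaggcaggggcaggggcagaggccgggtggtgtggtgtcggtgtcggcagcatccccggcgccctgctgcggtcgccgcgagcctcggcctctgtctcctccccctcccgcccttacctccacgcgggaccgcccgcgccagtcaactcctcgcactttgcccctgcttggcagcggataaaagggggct
The INSIG1 window holds the palindrome 56 bases before the start and 1 NF-Y match, on the opposite strand. STARD4, HSD17B7 and SCD hold 2 NF-Y matches each, and FADS1 and CYP51A1 hold none of the 3 motifs in these 300 bases. Over the windows of the 30 genes, the NF-Y letters were found in 22 (73.3%), beside 43.7% of the 7838 tested genes with a window and 39.7% of all 27305 genes with one. The sterol element letters were found in 1 of the 30 genes, SREBF2, and in 1.51% of tested genes, and the palindrome in 1 of the 30, INSIG1, and in 2.67% of tested genes. These are matches of letters and no measurement of binding.

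Among the mevalonate enzymes, HMGCS1, which makes HMG-CoA, had flasks at 93.8, 93.8 and 96.6 cpm in D20 and 338, 354 and 364 cpm in D20+ TGF-β. It was named after its values were seen, as the second largest change, 3.72-fold (log2 1.89 ± 0.25, edgeR adjusted p = 4.74e-05). FDPS, which makes farnesyl diphosphate (GRCh37 chr1:155278539-155290457), went from 112, 126 and 122 cpm to 253, 248 and 258 cpm, 2.11-fold (edgeR adjusted p = 2.63e-04). The flasks of both genes were separate, with little spread within a condition. ACAT2, which joins acetyl-CoA units at the head of the path (GRCh37 chr6:160183077-160200144), was at 46.8, 46.7 and 42.1 cpm in D20 and 86.4, 90.5 and 121 cpm in D20+ TGF-β, 2.19-fold (edgeR adjusted p = 8.16e-04), with treated replicate 3 the highest. The other 3 upregulated genes of this branch were the decarboxylase MVD at 2.78-fold, the isomerase IDI1 at 2.05-fold and the squalene synthase FDFT1 at 2.04-fold. The 2 kinases of the path were not called with all flasks: MVK had a log2 fold change of 0.76 ± 0.21 (edgeR adjusted p = 0.0120) with separate flasks, and PMVK one of 0.03 ± 0.15. Without D1 replicate 2 in the shared fit, MVK was at 0.76 ± 0.08 and called (edgeR adjusted p = 6.61e-06), and PMVK was again not called.

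All 10 enzymes from squalene to cholesterol were upregulated, by log2 0.76 to 1.44. LSS, the lanosterol synthase (GRCh37 chr21:47608055-47648738), was at 182, 190.3 and 199 cpm in D20 and at 383, 389 and 380.1 cpm in D20+ TGF-β, 2.02-fold (edgeR adjusted p = 0.00140). CYP51A1, the lanosterol demethylase (GRCh37 chr7:91714301-91764117), went from 127, 135 and 144 cpm to 250.4, 272 and 250.2 cpm, 1.90-fold (edgeR adjusted p = 6.81e-06). In both genes the lowest treated flask lay well above the highest untreated one. HSD17B7, low in all conditions (GRCh37 chr1:162760492-162782613), was at 7.76, 7.44 and 9.79 cpm and then at 21.4, 19.4 and 20.6 cpm, 2.44-fold (edgeR adjusted p = 1.09e-05). EBP, the sterol isomerase (GRCh37 chrX:48380187-48387104), went from 13.5, 12.5 and 11.7 cpm to 31.2, 28.7 and 33.1 cpm, 2.48-fold (edgeR adjusted p = 5.11e-05). The flasks of these genes were separate as well. DHCR7, a reductase of the last steps, rose 2.72-fold, the sterol reductase TM7SF2 2.66-fold, the methylsterol oxidase MSMO1 2.48-fold and the squalene monooxygenase SQLE 2.02-fold. The desaturase SC5D rose 1.76-fold and the dehydrogenase NSDHL 1.70-fold, the smallest change of the 10.

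Of the factors, SREBF1 (GRCh37 chr17:17713713-17740316) was at 66.9, 63.7 and 59.9 cpm in D20 and 96.9, 99.8 and 95.5 cpm in D20+ TGF-β, 1.54-fold (log2 0.62 ± 0.08, edgeR adjusted p = 4.78e-05). SREBF2 (GRCh37 chr22:42229109-42303310) went from 143, 160.3 and 172 cpm to 229, 227 and 225 cpm, 1.43-fold (edgeR adjusted p = 0.00496). Both rose less than most of the enzymes, with separate flasks. SCAP, the escort protein (GRCh37 chr3:47455171-47518616), was at 61.6, 68.9 and 71.3 cpm and at 61.8, 65.8 and 51.9 cpm, with overlapping flasks and a log2 fold change of -0.17 ± 0.11 (edgeR adjusted p = 0.248).

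In fatty acid synthesis, FASN, the synthase that makes palmitate (GRCh37 chr17:80036214-80056170), was at 215, 215 and 214 cpm in D20 and 595, 635 and 592 cpm in D20+ TGF-β, 2.83-fold (edgeR adjusted p = 2.40e-06). SCD (GRCh37 chr10:102106990-102124583) went from 565, 606 and 611 cpm to 1866, 2107 and 2066 cpm, 3.39-fold (edgeR adjusted p = 1.15e-05), the largest difference in cpm of the 34 genes. FADS1, a desaturase of polyunsaturated fatty acids (GRCh37 chr11:61567099-61596790), went from 153, 163 and 165 cpm to 591, 561 and 376 cpm, 3.18-fold (edgeR adjusted p = 1.58e-06). Treated replicate 3 was the lowest of its group in FADS1 and still above every other flask outside that group. FADS2 (GRCh37 chr11:61560452-61634826), which overlaps FADS1 on the opposite strand, was at 278, 302 and 307 cpm and 602, 619 and 577 cpm, 2.03-fold (edgeR adjusted p = 1.66e-04). ACLY (GRCh37 chr17:40023170-40086795) went from 421, 424 and 439 cpm to 615, 649 and 635 cpm, 1.48-fold (edgeR adjusted p = 1.57e-04), with separate flasks. The elongase ELOVL6 rose 2.13-fold and ACACA, the carboxylase that makes malonyl-CoA, 1.68-fold. ACSS2, which makes acetyl-CoA from acetate (GRCh37 chr20:33459949-33515765), had flasks at 50.4, 53.2 and 54.8 cpm and 74.7, 78.2 and 68.5 cpm, separate but not called (log2 0.48 ± 0.14, edgeR adjusted p = 0.0131). Without D1 replicate 2 in the shared fit it was called (log2 0.48 ± 0.07, edgeR adjusted p = 6.11e-05).

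The transport genes split. STARD4, a cytosolic sterol carrier (GRCh37 chr5:110831731-110848288), was at 46.6, 46.7 and 46.4 cpm in D20 and 117, 111 and 109.9 cpm in D20+ TGF-β, 2.42-fold (edgeR adjusted p = 1.58e-06), with the flasks of each condition close together. NPC1, which moves cholesterol out of lysosomes (GRCh37 chr18:21086148-21166470), was at 59.3, 62.0 and 54.3 cpm and 70.5, 67.5 and 53.5 cpm (log2 0.13 ± 0.22). ABCA1 (GRCh37 chr9:107543287-107690436) was at 151, 143 and 141 cpm and 149, 158 and 105 cpm (log2 -0.08 ± 0.20). The flasks of both overlapped, and treated replicate 3 was the lowest of its group in each. MYLIP (GRCh37 chr6:16129317-16148479) was at 16.3, 15.6 and 16.2 cpm in D20 and 7.49, 7.71 and 5.45 cpm in D20+ TGF-β, with every treated flask below every untreated one. In a fit of all 20434 genes with a count, without the minimum, its log2 fold change was -1.20 ± 0.21 (edgeR adjusted p = 7.64e-05).

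**Figure D4:**
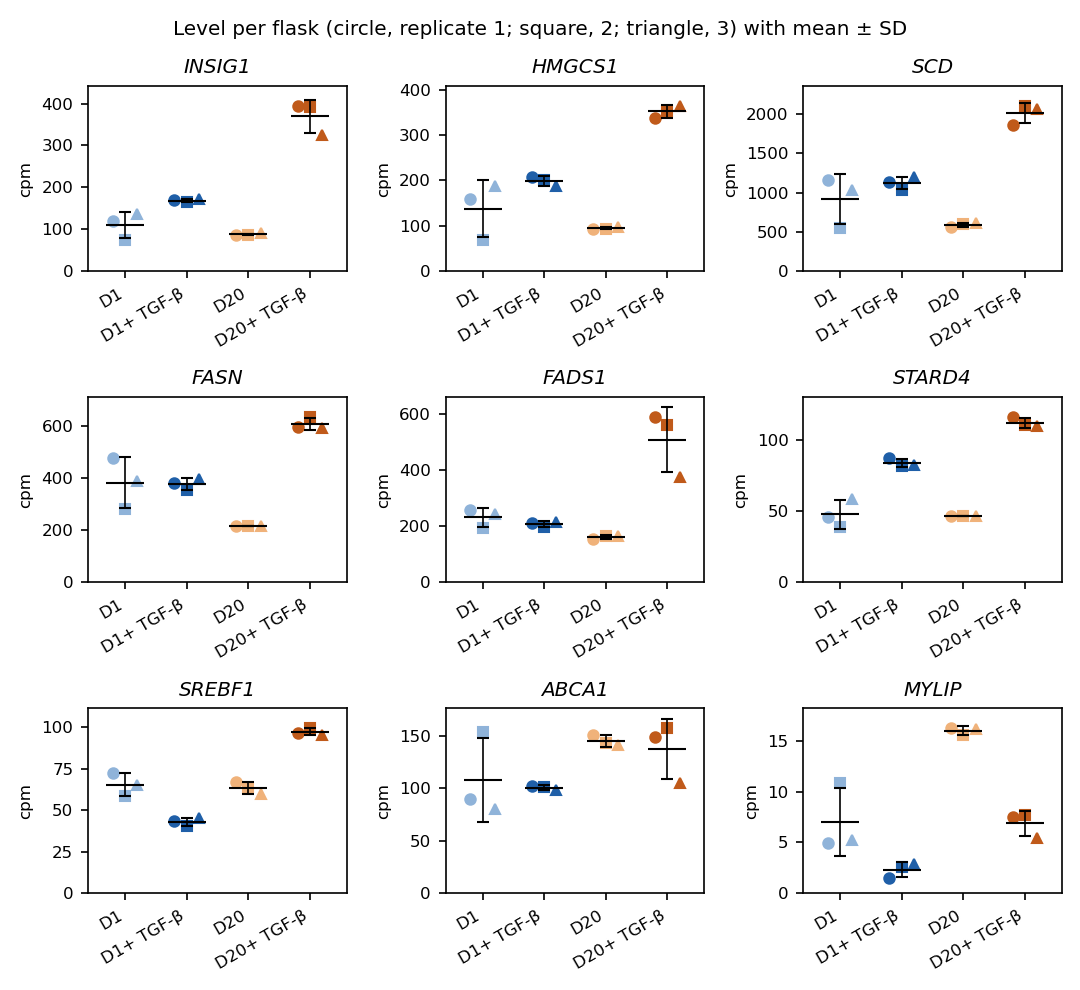
Cpm in each flask of 9 of the genes by condition, with the mean and SD of 3 flasks as bars; axes start at 0. INSIG1, HMGCS1, SCD, FASN, FADS1 and STARD4 are highest in the D20+ TGF-β flasks, SREBF1 is lowest in D1+ TGF-β and highest in D20+ TGF-β, and MYLIP is lower with TGF-β on either day.

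Proliferation genes moved in the same comparison: 13 of the 20 listed were upregulated and 0 downregulated, with 0 lower at an unadjusted p under 0.05 in edgeR and a median log2 fold change of 1.03. Their median level was 19.2 to 21.6 cpm in the D20 flasks and 25.2, 24.0 and 35.0 cpm in the D20+ TGF-β flasks, replicate 3 being the highest. Without that flask the count of upregulated genes of the set was again 27, beside 12% of all genes tested. The other treated flasks still lay above the D20 flasks in this median, so leaving it out does not remove the difference in proliferation genes. The part of that difference in the result was not tested. In bulk RNA, a change in the number of cells of one kind and a change in RNA per cell cannot be told apart. Of the 27 calls, 25 held under all 21 alternatives of test, scaling, filter, pairing and libraries; NSDHL lost its call in 2 of them and SREBF2 in 4, each on leaving out a D20 or D20+ TGF-β flask.

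After 1 day of treatment (D1+ TGF-β vs D1) few genes of the set were called, 6.06% in either direction, near the shares over all genes. The wide spread of the D1 flasks enters these tests. Of the 33 genes, 2 were upregulated (STARD4 and ACLY) and 2 downregulated (SREBF1 and ACSS2), beside 6.89% and 6.5% of all genes tested. The median log2 fold change was 0.14, and -0.02 over all genes. The flasks of the conditions were separate in 9 of the 33 genes and in 36.4% of all genes. None of the 18 enzymes of the mevalonate and sterol steps was called, with log2 fold changes from -0.31 (LSS) to 0.57 (SQLE). At an unadjusted p under 0.05, 11 of the 33 genes passed in edgeR, and the share over all genes at that threshold was not computed.

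STARD4 was at 45.8, 38.7 and 59.0 cpm in D1 and at 87.6, 81.8 and 82.9 cpm in D1+ TGF-β, 1.76-fold (log2 0.82 ± 0.11, edgeR adjusted p = 1.77e-04). SREBF1 went the other way, from 72.8, 58.7 and 65.2 cpm to 43.6, 40.6 and 45.4 cpm, a 1.52-fold fall (log2 -0.60 ± 0.08, edgeR adjusted p = 1.82e-04). In both genes every treated flask lay beyond every untreated one, and both calls held in all 21 alternatives. ACLY was at 608, 469 and 564 cpm and 702, 689 and 693 cpm (log2 0.35 ± 0.08, edgeR adjusted p = 0.00917). ACSS2 was at 53.2, 32.0 and 49.9 cpm and 30.4, 28.1 and 30.8 cpm (log2 -0.59 ± 0.15, edgeR adjusted p = 0.00973). Each of these calls was lost in 13 of the 21 alternatives, among them those that left out any of the 3 D1+ TGF-β flasks.

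Among the genes not called, INSIG1 was at 121, 75.3 and 135 cpm in D1 and 169.6, 164 and 172 cpm in D1+ TGF-β (log2 0.61 ± 0.16, edgeR adjusted p = 0.0118). Its treated flasks all lay above the untreated ones. SREBF2 was at 186, 125 and 153 cpm and 135, 139 and 169 cpm, and SCAP at 68.6, 55.1 and 54.5 cpm and 43.3, 41.7 and 51.0 cpm (log2 -0.39 ± 0.12, edgeR adjusted p = 0.0243). The SREBF2 flasks overlapped, while those of SCAP were separate and lower with TGF-β. NPC1 was at 66.8, 119.6 and 55.5 cpm and 43.0, 44.4 and 53.2 cpm (log2 -0.79 ± 0.22, edgeR adjusted p = 0.0176), and ABCA1 at 89.5, 154 and 80.4 cpm and 102, 101 and 98.1 cpm. D1 replicate 2 was the high flask in both. MYLIP, at 4.98, 10.9 and 5.19 cpm in D1 and 1.54, 2.61 and 2.84 cpm in D1+ TGF-β, had separate flasks and a log2 fold change of -1.60 ± 0.26 in the fit without a minimum (edgeR adjusted p = 7.40e-05).

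Without D1 replicate 2, 4 genes were upregulated (SQLE, INSIG1, STARD4 and ACLY) and 4 downregulated (LSS, SREBF1, ACSS2 and FADS2), all 4 earlier calls among them. In that fit 10.1% of all genes tested were upregulated and 10% downregulated, so the counts of the set were again near those shares. The median log2 fold change of the 33 genes was -0.08. Log2 fold changes without it were 0.68 ± 0.09 for STARD4, 0.24 ± 0.06 for ACLY, -0.68 ± 0.08 for SREBF1 and -0.80 ± 0.08 for ACSS2. They were 0.39 ± 0.09 for INSIG1, 0.34 ± 0.08 for SQLE, -0.59 ± 0.07 for LSS and -0.37 ± 0.09 for FADS2. NPC1 was at -0.39 ± 0.13, SCAP was at -0.45 ± 0.12 and SREBF2 at -0.20 ± 0.11, and ABCA1 turned positive at 0.24 ± 0.13, none of them called. MYLIP was at -1.09 ± 0.22 in the fit without a minimum (edgeR adjusted p = 4.53e-04). With library totals alone in place of composition factors, 1 gene was upregulated and 3 were downregulated. Of the proliferation genes, 0 were upregulated and 1 of 20 downregulated, with and without the flask (0 higher at an unadjusted p under 0.05 in edgeR).

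The difference of the TGF-β responses, D20 minus D1, was tested in the same fit as an interaction. It was positive in all 33 genes, with a median of 0.90 on the log2 scale beside 0.02 over all genes. It was called in 14 genes, all with the larger response at D20, against 4.51% of all genes tested with a larger and 5.87% with a smaller value at D20. A smaller response at D20 was seen in 0 of the 33 genes at an unadjusted p under 0.05 in edgeR, and in 0 by DESeq2 or limma-voom. The 14 were 6 of the 10 enzymes from squalene to cholesterol, 5 of the 8 fatty acid genes, SREBF1, INSIG1 and MVD.

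SREBF1 had the smallest adjusted p, with a difference of 1.22 ± 0.12 on the log2 scale (edgeR adjusted p = 1.87e-05): it fell at D1 and rose at D20. FADS1 differed by 1.82 ± 0.20 (edgeR adjusted p = 6.88e-05) and FASN by 1.52 ± 0.19 (edgeR adjusted p = 1.67e-04). Their D1 flasks had been at 257, 193 and 243 cpm for FADS1 and 476, 282 and 388 cpm for FASN, and their D1+ TGF-β flasks at 211, 196 and 215 cpm and 380.3, 352 and 397 cpm, overlapping in each. INSIG1 differed by 1.46 ± 0.22 (edgeR adjusted p = 5.94e-04). FADS2, at 477, 263 and 385 cpm in D1 and 336, 306 and 359.8 cpm in D1+ TGF-β, differed by 1.19 ± 0.22 (edgeR adjusted p = 0.00203). SCD, at 1165, 555 and 1029 cpm and 1138, 1037 and 1199 cpm, differed by 1.47 ± 0.27 (edgeR adjusted p = 0.00204). For both, D1 replicate 2 was the lowest of the 6 day 1 flasks. ACSS2, downregulated at D1 and at log2 0.48 at D20, differed by 1.08 ± 0.20 (edgeR adjusted p = 0.00231).

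Without D1 replicate 2 the difference was called in 29 genes, all higher and the 14 among them, with a median of 1.13. The shares over all genes tested rose as well in that fit, to 8.72% higher and 9.55% lower. The difference was then 1.30 ± 0.10 for SREBF1, 1.68 ± 0.11 for INSIG1, 1.70 ± 0.11 for FASN, 1.73 ± 0.11 for SCD, 1.94 ± 0.19 for FADS1, 1.39 ± 0.12 for FADS2 and 1.28 ± 0.10 for ACSS2. ABCA1, at 0.03 ± 0.28 with all flasks, was then at -0.32 ± 0.17 and was not called in either fit. STARD4 differed by 0.46 ± 0.16 (edgeR adjusted p = 0.0551), and by 0.60 ± 0.12 without the flask (edgeR adjusted p = 0.00233). MYLIP differed by 0.40 ± 0.34 in the fit without a minimum (edgeR adjusted p = 0.558), and by -0.13 ± 0.27 without the flask (edgeR adjusted p = 0.896). Beside this, 12 of the 20 proliferation genes had a larger response at D20 (13 without the flask) and 0 a smaller one (0 at an unadjusted p under 0.05 in edgeR). Of the 14 calls, 7 held under all alternatives run for the difference.

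**Figure D5:**
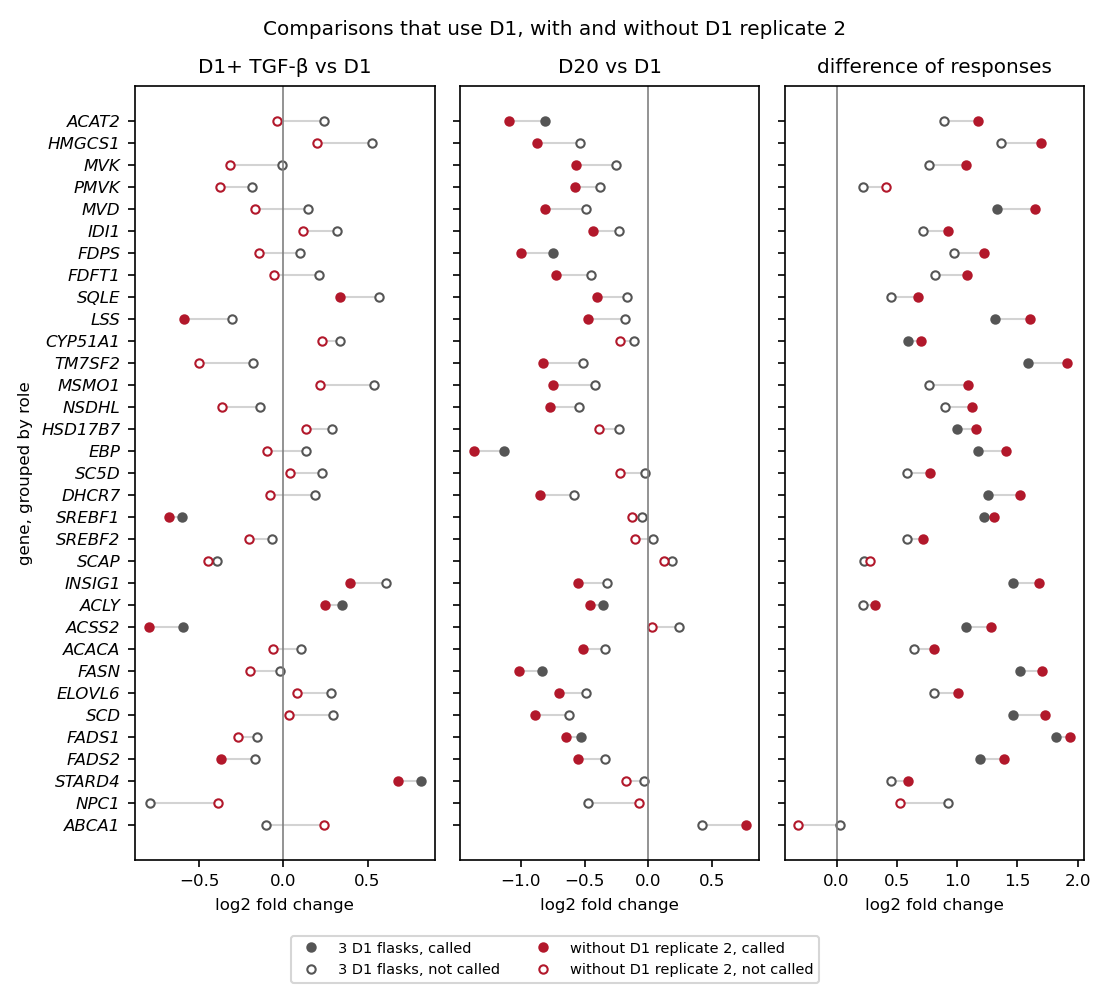
Log2 fold changes of the 33 genes tested in 3 panels, D1+ TGF-β vs D1, D20 vs D1, and the response at D20 minus that at D1, with all 3 D1 flasks (grey) and without D1 replicate 2 (red); filled points have an adjusted p under 0.01. Leaving the flask out moves D20 vs D1 further below 0 in most genes and raises the called genes from 6 to 24. The shares of all genes tested called there were 18.9% higher and 17.6% lower with all flasks, and 21.2% and 20.7% without it.

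D20 vs D1 compares untreated cultures by time. In it 6 of the 33 genes (18.2%) were downregulated and 0 upregulated, beside 17.6% and 18.9% of all genes tested. The share downregulated was thus near that over all genes. At an unadjusted p under 0.05 edgeR had 17 lower and 1 higher, and the share over all genes at that threshold was not computed. DESeq2 and limma-voom called 0 higher. The median log2 fold change was -0.35 (0.01 over all genes). The 6 were the isomerase EBP, FASN, FDPS, ACLY, ACAT2 and FADS1. Flasks were separate in these 6 genes and in 55.6% of all genes tested.

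EBP was at 32.2, 18.5 and 32.2 cpm in D1 and 13.5, 12.5 and 11.7 cpm in D20, a 2.19-fold fall (log2 -1.13 ± 0.17, edgeR adjusted p = 1.15e-04). FASN fell 1.78-fold from its D1 level to the D20 flasks near 215 cpm (log2 -0.83 ± 0.14, edgeR adjusted p = 2.17e-04). Both calls held in all 21 alternatives. FDPS, at 249.9, 129 and 229 cpm in D1, fell 1.68-fold (edgeR adjusted p = 0.00263), and ACAT2, at 89.8, 47.2 and 102 cpm in D1, fell 1.76-fold (edgeR adjusted p = 0.00594). For ACAT2 the gap was narrow, with D1 replicate 2 just above the highest D20 flask. FADS1 fell 1.44-fold (edgeR adjusted p = 0.00810) and ACLY 1.28-fold (edgeR adjusted p = 0.00354). SREBF1 at log2 -0.05 ± 0.08, SREBF2 at 0.04 ± 0.13 and STARD4 at -0.03 ± 0.11 had overlapping flasks.

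This comparison rests most on D1 replicate 2. Without it 23 genes were downregulated, among them the 6, and 1, ABCA1, was upregulated (log2 0.76 ± 0.13, edgeR adjusted p = 0.000269). In that fit 20.7% of all genes tested were downregulated and 21.2% upregulated. The median log2 fold change of the 33 genes was then -0.55. Log2 fold changes were then -1.37 ± 0.09 for EBP, -1.02 ± 0.08 for FASN, -0.999 ± 0.07 for FDPS, -1.09 ± 0.12 for ACAT2, -0.65 ± 0.14 for FADS1 and -0.46 ± 0.06 for ACLY. SREBF1 was at -0.13 ± 0.08, SREBF2 turned to -0.10 ± 0.11, and STARD4 was at -0.18 ± 0.09, again not called. D1 replicate 2 lay within the range of the D20 flasks in 4 of the 34 genes, below it in 22 and above it in 8. MYLIP was higher in D20 than in D1, by log2 1.08 ± 0.21 in the fit without a minimum (edgeR adjusted p = 0.000171) and by 1.60 ± 0.18 without the flask. All 20 proliferation genes were downregulated in D20 vs D1, with a median log2 fold change of -2.36 (-2.24 without the flask), and their part in the result was not tested.

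Between treated cultures, D20+ TGF-β vs D1+ TGF-β, 15 of the 33 genes were upregulated and 0 downregulated, beside 17.2% and 17.7% of all genes tested; edgeR had 0 lower at an unadjusted p under 0.05, as DESeq2 and limma-voom had 0 downregulated. The median log2 fold change was 0.49 (0.01 over all genes), and 31 of the 33 genes had separate flasks, 29 higher and 2 lower, against 63.2% of all genes tested. SREBF1, SREBF2 and INSIG1 were among the 15, with 5 enzymes each from the squalene to cholesterol steps and from fatty acid synthesis, MVD and STARD4.

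SREBF1 rose 2.26-fold between the treated groups (log2 1.18 ± 0.08, edgeR adjusted p = 6.51e-07), the smallest adjusted p of the set. ACSS2 rose 2.49-fold (edgeR adjusted p = 1.33e-05), FADS1 2.46-fold (edgeR adjusted p = 1.48e-05) and INSIG1 2.20-fold (edgeR adjusted p = 6.51e-05). The treated flasks of the 2 days did not overlap in any of these genes. LSS, at 277, 122 and 249.8 cpm in D1 and 179, 164 and 182 cpm in D1+ TGF-β, rose 2.20-fold from the latter (edgeR adjusted p = 5.08e-04). HSD17B7, at 11.5, 7.84 and 10.5 cpm and 13.2, 11.8 and 11.3 cpm on day 1, rose 1.70-fold (edgeR adjusted p = 5.34e-04), and CYP51A1, at 155, 125 and 159 cpm and 170.1, 182 and 201 cpm, 1.40-fold (edgeR adjusted p = 0.00102). EBP at log2 0.04 ± 0.16, ACAT2 at 0.08 ± 0.21, FDPS at 0.22 ± 0.17 and ACLY at -0.13 ± 0.08 were not called. D1+ TGF-β flasks of EBP were at 30.8, 30.2 and 29.4 cpm, of ACAT2 at 97.4, 91.3 and 92.3 cpm and of FDPS at 212, 208 and 229.9 cpm.

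No D1 flask is in either group of this comparison; D1 flasks enter it through the shared estimate of the spread and the scaling factors. Without D1 replicate 2 the count was 29 upregulated and 0 downregulated, the 15 among them, with the same median of 0.49. Over all genes tested, 21% were then upregulated and 21% downregulated. All 20 proliferation genes were downregulated here, with a median log2 fold change of -1.09, and their part in the result was not tested. MYLIP was higher by log2 1.49 ± 0.27 in the fit without a minimum (edgeR adjusted p = 8.68e-05).

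Genes of 4 related lists were counted beside the set. Over all genes tested, D20+ TGF-β vs D20 called 12.8% higher and 14.7% lower, and D1+ TGF-β vs D1 called 6.89% and 6.5%. D20 vs D1 called 18.9% and 17.6%, the treated groups of the 2 days 17.2% and 17.7%, and the difference of responses 4.51% and 5.87%. Without D1 replicate 2 they were, in order, 16.3% and 18.2%, 10.1% and 10%, 21.2% and 20.7%, 21% and 21%, and 8.72% and 9.55%. The counts of each list are to be read beside these shares. Of 12 genes of SREBP processing and sterol sensing, D20+ TGF-β vs D20 called 1 higher and 2 lower, D20 vs D1 called 2 and 2, the treated groups of the 2 days 1 and 1, and the remaining 2 comparisons called 0 in edgeR (4 in D1+ TGF-β vs D1 and 5 in the difference of responses at an unadjusted p under 0.05); across the 5 comparisons, median log2 fold changes lay between -0.05 and 0.04. With D1 replicate 2 left out, D20 vs D1 called 1 and 2, and the counts of the other 4 comparisons were the same. ERLIN1, a membrane scaffold protein, fell 1.42-fold in D20 vs D1 (edgeR adjusted p = 9.56e-05; log2 -0.49 ± 0.08 without the flask), and the ubiquitin-conjugating enzyme UBE2G2 fell 1.28-fold between the treated groups (edgeR adjusted p = 4.98e-04).

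Of 14 tested genes of the isoprenoid branches and other sterol enzymes, D20+ TGF-β vs D20 called 1 higher and 1 lower, as D1+ TGF-β vs D1 did. D20 vs D1 called 1 higher and 3 lower, the treated groups of the 2 days 0 higher and 4 lower, and the difference of responses 0 higher and 1 lower; at an unadjusted p under 0.05 edgeR had 4 higher in each of the last 2. Leaving out D1 replicate 2, the counts were 3 and 1 in D20+ TGF-β vs D20, 1 and 3 in D1+ TGF-β vs D1, 1 and 3 in D20 vs D1, 2 and 5 between the treated groups and 2 and 1 for the difference. LBR, a sterol reductase of the nuclear envelope, fell 1.71-fold in D20 vs D1 (edgeR adjusted p = 1.56e-04; log2 -0.71 ± 0.13 without the flask). ICMT, which methylates prenylated proteins, fell 1.30-fold in D20+ TGF-β vs D20 (edgeR adjusted p = 1.82e-04), where the prenyltransferase subunit RABGGTB rose 1.28-fold (edgeR adjusted p = 0.00341).

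The 18 tested genes of other fatty acid synthesis, elongation and activation had 1 higher and 3 lower in D20+ TGF-β vs D20. D20 vs D1 called 3 higher and 2 lower, the treated groups 1 and 2, the difference of responses 1 and 2, and D1+ TGF-β vs D1 called 0 in edgeR (10 at an unadjusted p under 0.05). The counts without D1 replicate 2 were 2 and 4 in D20+ TGF-β vs D20, 4 and 4 in D20 vs D1, 3 and 2 between the treated groups, 3 and 2 for the difference and 1 and 1 in D1+ TGF-β vs D1. SCD5, a second stearoyl-CoA desaturase, went against SCD and fell 2.17-fold in D20+ TGF-β vs D20 (log2 -1.12 ± 0.10, edgeR adjusted p = 1.46e-06). Its mean was 45.1 ± 1.25 cpm in D20 and 20.8 ± 1.48 cpm in D20+ TGF-β (SD, n = 3). FADS3 likewise fell 1.42-fold (edgeR adjusted p = 6.66e-04), whereas MID1IP1, which binds and activates acetyl-CoA carboxylase, rose 1.58-fold (edgeR adjusted p = 8.99e-05).

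Of 13 tested genes of sterol transport, esterification and oxysterol response, D20+ TGF-β vs D20 called 4 higher and 2 lower. D1+ TGF-β vs D1 called 1 higher and 3 lower, D20 vs D1 2 and 2, the treated groups 6 and 0, and the difference of responses 1 and 0, with 0 lower in the last 2 also at an unadjusted p under 0.05 in edgeR. In the same order, without D1 replicate 2, they were 5 and 2, 1 and 4, 2 and 2, 7 and 0, and 4 and 0. The lipoprotein receptor LRP8 rose 1.98-fold in D20+ TGF-β vs D20 (edgeR adjusted p = 1.77e-05). LPCAT3, a phospholipid acyltransferase known as an LXR target, fell with TGF-β on both days, 1.52-fold at D1 (edgeR adjusted p = 2.33e-04; log2 -0.58 ± 0.09 without D1 replicate 2) and 1.74-fold at D20 (edgeR adjusted p = 6.72e-06). CYP27A1, a sterol hydroxylase, rose 3.29-fold between the treated groups (edgeR adjusted p = 4.03e-05).

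Some values may hold reads of neighbours, since the counting program and its use of strand were not given. FADS1 and FADS2 overlap each other, CYP51A1 overlaps AKAP9, ACAT2 overlaps TCP1 and SOD2, MVK overlaps MMAB, SREBF1 overlaps RAI1, NPC1 overlaps RMC1 and ACSS2 overlaps GGT7. Antisense genes lie within IDI1, FDPS, CYP51A1, STARD4 and SREBF2, and TM7SF2, ACACA and FADS2 also overlap VPS51, C17orf78 and FEN1. HSD17B7 has a pseudogene copy, HSD17B7P2, with 190 counts in all libraries beside 1906 for HSD17B7, and FDPSP2 had 32 beside 29277 for FDPS.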

How the data were processed

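RNA from WI-38 flasks was sequenced by the authors on 4 lanes per library. The submitters' processing notes name FastQC, Trimmomatic and limma, the paper's methods name Trimmomatic, Rsubread for mapping to hg19, edgeR for a filter and limma, and the counting program, annotation and use of strand are not given in the sources used here. The authors deposited counts for 25702 genes in each lane, not normalized, and these were used. They also deposited log2 cpm from voom for 9412 genes, which were used for gene symbols and hold 33 of the 34 members; the low MYLIP was matched by its Entrez identifier.

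Lanes were summed for 12 libraries. A gene had to reach 10 cpm in 6 or more libraries, which left 9490 for testing. edgeR 4.0.16 in R 4.3.3 was used with TMM factors (0.97 to 1.04), a quasi-likelihood fit of the 4 condition means, Benjamini-Hochberg adjustment over the genes tested and a threshold of 0.01; the common biological coefficient of variation was 9.35%. Cpm are scaled by the TMM factors, and each standard error was derived from a log2 fold change and its F statistic (their quotient after the root). Errors are spreads between flasks and include counting error at these depths; no counting intervals were computed. The study used limma, given here as an alternative (limma 3.58.1), beside DESeq2 1.42.0, other factors and filters, subsets of libraries and the replicate number as a block. The related lists and MYLIP without D1 replicate 2 were added after seeing the data. An exact permutation test of 3 against 3 flasks cannot go below 0.1 and was not run. On simulated counts for 9490 genes, edgeR recovered 95% of genes changed by log2 1 and 100% of those changed by log2 2 for the day 20 treatment effect, where 4 calls were false. For the difference of responses it recovered 79% and 100%, where 2 were false. In the simulation 100 genes at each size were changed, in D20+ TGF-β only, and no flask stood apart. These figures therefore need not hold for the data, where D1 replicate 2 did.

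The members and gene lists were chosen with earlier results of these data known. Flask values are given for the 6 called members with the smallest adjusted p in each of the 5 comparisons and for SREBF1, SREBF2, SCAP, INSIG1, ABCA1, MYLIP and NPC1; from each other list, the 3 genes with the smallest adjusted p are named, except 1 gene that is not reported here. Gene positions are from GENCODE on GRCh37, and promoters from RefSeq on GRCh38.p14; a gene with more than 1 window counted once, as holding a motif in any of them. Western blots, staining and real-time PCR were not analysed here.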

Additional observations from a re-analysis of the deposited data

Results flagged for a closer look

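For 14 of the genes the response to TGF-β at D20 differed from that at D1 by edgeR's interaction test, and it was larger at D20 in each. On the log2 scale the differences for the fatty acid genes were 1.82 for FADS1, 1.52 for FASN, 1.47 for SCD, 1.19 for FADS2 and 1.08 for ACSS2. For the sterol enzymes they were 1.59 for TM7SF2, 1.33 for MVD, 1.32 for LSS, 1.25 for DHCR7, 1.17 for EBP, 1.00 for HSD17B7 and 0.60 for CYP51A1. INSIG1 differed by 1.46 and SREBF1 by 1.22. SREBF1 was called lower with TGF-β at D1 (log2 -0.60) and higher at D20 (0.62), the only one of the 33 genes tested to do so with all flasks. Without D1 replicate 2 this was so for LSS (-0.59 ± 0.07 and 1.01 ± 0.06), ACSS2 (-0.80 ± 0.08 and 0.48 ± 0.07) and FADS2 (-0.37 ± 0.09 and 1.02 ± 0.08) as well. The differences of SREBF1, FADS1, FASN, INSIG1, FADS2, SCD and ACSS2 were called in all 20 alternatives run for them; the other 7 lost the call in 4 to 12 of the 20. Groups of 3 flasks were too small to be tested for outlying values.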

How the results depend on the processing

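No called change of a tested member reversed its direction under the alternatives run. Counts of genes called higher and lower that differed from those reported were as follows. D1+ TGF-β vs D1, at 2 and 2: DESeq2 gave 5 and 2, limma-voom 3 and 1, 48 lanes as samples 14 and 4, no composition factor 1 and 3, no gene filter 3 and 5, filterByExpr 1 and 3, only its 6 libraries 1 and 1, an adjusted p of 0.05 gave 5 and 4. D20+ TGF-β vs D20, at 27 and 0: DESeq2, lanes, no composition factor and 0.05 gave 29 and 0, no filter and its 6 libraries 29 and 1, filterByExpr 27 and 1. D20+ TGF-β vs D1+ TGF-β, at 15 and 0: DESeq2 18, RLE factors 16, no composition factor 19, no filter 20, 0.05 gave 19 and its 6 libraries 26, all with 0 lower, and lanes 28 and 1. D20 vs D1, at 0 and 6: DESeq2 0 and 10, limma-voom 0 and 5, RLE factors 0 and 7, no composition factor 0 and 9, lanes 3 and 17, no filter 1 and 13, filterByExpr 1 and 9, its 6 libraries 1 and 3, 0.05 gave 0 and 12. Difference of responses, at 14 and 0: limma-voom 10, DESeq2 20, no composition factor 19, lanes 30, no filter 24 and 0.05 gave 25, all with 0 lower. MYLIP, in the fit of all genes with a count, changed the sign of its difference without D1 replicate 2, from 0.40 to -0.13 ± 0.27, called in neither. Lanes repeat 1 library, so their spread is too small. The shares over all genes tested moved with these settings too. In D20 vs D1 they were 33.4% higher and 29.3% lower with lanes as samples, and 10% and 12% with no filter. Leaving out 1 library gave 1 to 4 higher and 1 to 4 lower in D1+ TGF-β vs D1, 25 to 29 higher in D20+ TGF-β vs D20, 9 to 29 higher between the treated groups, 0 to 1 higher and 2 to 23 lower in D20 vs D1, and 7 to 29 for the difference; the highest count was without D1 replicate 2 in all of them, shared with D1 replicate 3 for the genes higher in D1+ TGF-β vs D1. The lowest counts were without D1+ TGF-β replicate 2 (9), without D1 replicate 1 or 3 or D20 replicate 1 (2) and without D1+ TGF-β replicate 2 or D20 replicate 2 (7). Of the leave-one-out fits, a condition left with 2 flasks shares the spread of the rest. With the replicate block, D1+ TGF-β vs D1 had 1 higher and 1 lower, and the other counts stayed at 27, 15, 6 and 14. Same-numbered flasks deviated together with correlations of -0.223 to 0.325, over 0.1 in 4 of 18 pairs, against 12 of 36 differently numbered pairs. No pairing by number was seen, and deviations from means of 3 flasks cannot exclude it. With no composition factor the median of all genes in the difference moved from 0.02 to 0.13, that of the members from 0.90 to 1.01, and the share of all calls that were higher from 43.5% to 66.9%; in D1+ TGF-β vs D1 this share went from 51.5% to 34.8% and in D20 vs D1 from 51.8% to 39.7%. The sterol element letters with 1 base less were found in 3 member promoters, and the NF-Y letters in 11 on the gene's strand alone. The cause of these moves was not tested.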

Other observations

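The genes named here, which have roles linked to LXRs, were chosen after their values were seen. NR1H3, which encodes an LXR, was at 15.6 ± 0.825 cpm in D1, 6.68 ± 1.30 in D1+ TGF-β, 23.0 ± 1.24 in D20 and 11.7 ± 3.63 in D20+ TGF-β (SD, n = 3). It fell with TGF-β at D1 (log2 -1.25 ± 0.20, edgeR adjusted p = 4.85e-04), and at D20 (log2 -0.95 ± 0.17, edgeR adjusted p = 6.98e-04). LPCAT3 was called lower with TGF-β on both days, and MYLIP had every treated flask below every untreated one on both. ABCA1 had overlapping flasks and was called in neither comparison. SREBF1, also an LXR target, fell at D1 (log2 -0.60 ± 0.08, edgeR adjusted p = 1.82e-04) and rose at D20 (log2 0.62 ± 0.08, edgeR adjusted p = 4.78e-05). NR1H2, the other LXR gene, had log2 fold changes of -0.25 ± 0.08 at D1 and 0.23 ± 0.08 at D20, neither called. VLDLR, a lipoprotein receptor that MYLIP can mark for degradation, rose with TGF-β by log2 1.13 ± 0.20 at D1 (edgeR adjusted p = 0.00100) and 0.80 ± 0.19 at D20 (edgeR adjusted p = 0.00362). Its means were 9.61 ± 3.48 cpm in D1, 21.4 ± 2.35 in D1+ TGF-β, 14.3 ± 2.45 in D20 and 25.2 ± 1.74 in D20+ TGF-β. The difference between the responses of the 2 days was not called for NR1H3 (0.29 ± 0.26 on the log2 scale) or VLDLR (-0.33 ± 0.27). Without D1 replicate 2 the D1 response was -1.22 ± 0.22 for NR1H3, -0.24 ± 0.09 for NR1H2 and 1.49 ± 0.15 for VLDLR, and the difference was 0.28 ± 0.28 for NR1H3 and -0.69 ± 0.20 for VLDLR, not called, and 0.47 ± 0.12 for NR1H2 (edgeR adjusted p = 0.00954; 0.48 ± 0.12 with all flasks, edgeR adjusted p = 0.0113).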
